A study of Drosophila melanogaster and Drosophila virilis with 60 samples.

Results

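Whole animals of *Drosophila virilis* were compared between the 2nd larval instar and P1, the first stage of the puparium. These 2 stages were chosen by their sample labels and comprised 6 of the 30 *D. virilis* libraries and of the 60 libraries in the whole dataset, with 3 biological replicates per stage. Each library was made from poly(A) RNA of a pool of whole animals reared at a constant temperature, with no genetic or drug treatment at any stage. The larvae were collected about midway between molts, and the P1 animals were staged by eye. The sex of the larvae and of the P1 animals was not determined, whereas the adult flies were males aged 5 d. Adults, embryos aged 15 h and the later pupal stages, including pupae of 36 h and 72 h, were used to estimate the spread. Genes were also followed through these stages, and larvae were compared with embryos, P2 with P1, and adults and P2 with 36 h pupae. Larvae of other instars and P1 animals of *Drosophila melanogaster* were used to give the same step in named genes. The embryos, later pupal stages and adult males of *D. melanogaster* also entered the fit of that species, to estimate the spread. The *D. virilis* comparison of larvae and P1 spans the rest of the 2nd instar, the whole final instar and the formation of the puparium. Changes within this interval cannot be told apart. In whole animals, fewer cells of a type and less RNA per cell also cannot be told apart.

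A *Drosophila* larva feeds and grows until a pulse of the steroid hormone 20-hydroxyecdysone at the end of the final instar makes it stop moving. It then shortens, glues itself to a surface, and hardens its larval cuticle into the puparium, the case in which metamorphosis takes place. P1 is the white prepupa, at which this case has just formed. Larval tissues are later broken down, while the imaginal discs and other progenitors build the adult body.

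The *D. virilis* table lists 13685 genes by numeric LOC identifiers, which the files do not pair with gene names. The stage labels could therefore not be checked against named markers, gene lists could not be scored in this species, and only 2 rising and 2 falling genes are given by identifier. Of these genes, 13634 varied between libraries and were tested, and 51 were constant. Counts recovered from the deposited values summed to 7730944 to 8861871 in the larval libraries and to 6597549 to 10056246 in the P1 libraries. More genes were detected with at least 1 count at P1 (12496 to 12671) than in larvae (11354 to 11406), and the P1 library with the lowest total still held more genes than every larval library. Across the genes tested, Spearman correlations were 0.983 to 0.989 within larvae, 0.974 to 0.984 within P1 and 0.684 to 0.744 for the 9 pairs between the stages. These are correlations across genes, which are not independent replicates. The median standard deviation of a gene between replicates was 0.144 log2 units in larvae and 0.217 at P1.

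The first question was how much of the transcriptome differed between the feeding larva and the newly formed puparium. In limma, with Benjamini-Hochberg adjusted p under 0.05, 8573 of 13634 genes (62.9%) were called different. At P1, 4860 genes (35.6%) were higher and 3713 (27.2%) were lower. The median difference was 1.56 log2 units among the genes called higher and -1.47 among those called lower. The median over all genes tested was 0.14 in the deposited values. It was 0.065 with libraries centred on their median and -0.057 after quantile normalization, so that its sign rested on the scaling. In 8464 of the called genes the 3 P1 libraries all lay on one side of the 3 larval libraries, and in 109 the stages overlapped. Without regard to the test, all P1 libraries were above all larval libraries for 5541 genes (40.6%) and below them for 4389 (32.2%). When libraries were quantile normalized, 49.2% of the calls were higher at P1, against 56.7% in the deposited values, so that the excess of rising over falling genes rested on the scaling.

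**Figure D1:**
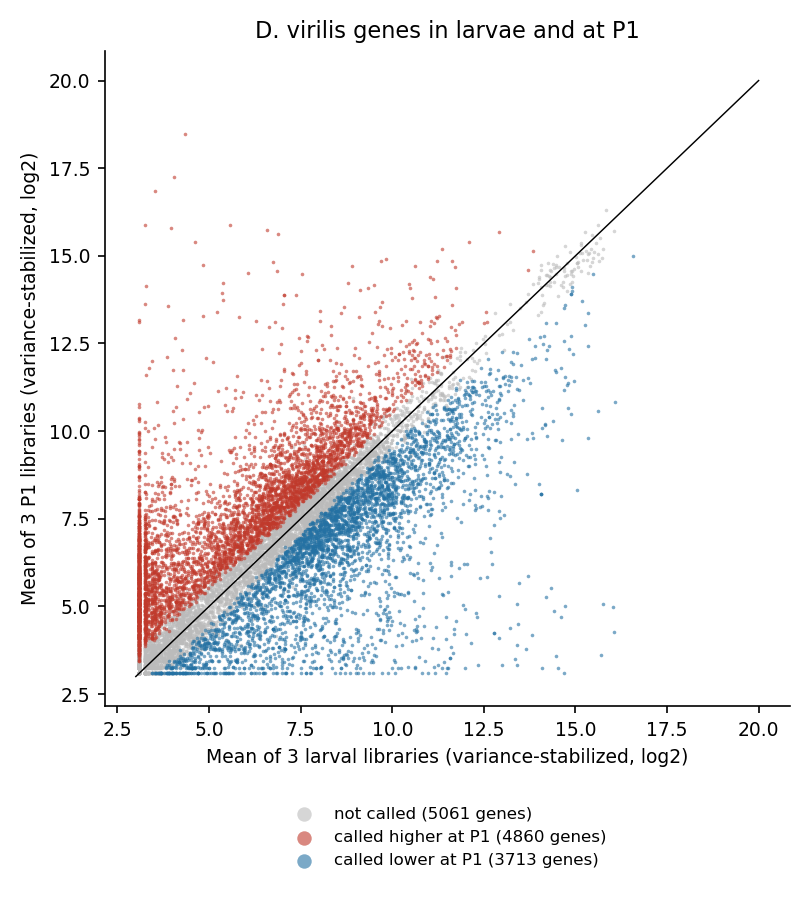
Mean variance-stabilized value of each of the 13634 genes tested in the 3 larval libraries (x axis, log2) and in the 3 P1 libraries (y axis, log2), colored by the limma call, with the line of equal values. The 4860 genes called higher at P1 lie above the line and the 3713 called lower lie below it, and many of the higher genes form a column at the value of a count of 0 in larvae.

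Both directions included large changes. A difference of at least 1 log2 unit was reached by 6313 called genes (46.3%), with 3635 higher (26.7%) and 2678 lower (19.6%). At least 2 units were reached by 1740 higher and 1239 lower genes, and at least 5 units by 145 higher and 191 lower genes. At the far end, 11 genes rose and 9 fell by at least 10 units. The direction varied with the level of the gene, taken as the mean normalized count (the count divided by the size factor of its library) over the 6 libraries. Among 3950 genes at 10 to 100 normalized counts, 48.1% were higher at P1 and 20.5% were lower. Among 1191 genes at 1000 to 10000, 31.7% were higher and 49.9% were lower. Below 1 normalized count, 2.33% of 814 genes were higher and 1.97% were lower. The deposited scale compresses differences between low values. On the scale of log2(normalized count + 1), 798 genes rose and 365 fell by at least 5 units.

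The genes with the largest changes made up a considerable part of the RNA of the stage in which they were high. The 145 genes that rose by at least 5 units held 0.0605% to 0.0622% of the counts in the larval libraries and 17.1% to 20.1% at P1. The 191 genes that fell by at least 5 units held 11.1% to 12.2% in larvae and 0.0771% to 0.123% at P1. These genes were chosen by this same difference, so the shares describe how much of each library they made up and are no separate evidence of it. The P1 libraries were also more uneven. The most abundant gene made up 0.921% to 1.01% of a larval library and 3.25% to 5.70% of a P1 library, and the 10 most abundant genes made up 6.26% to 6.90% and 11.5% to 13.6%.

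**Figure D2:**
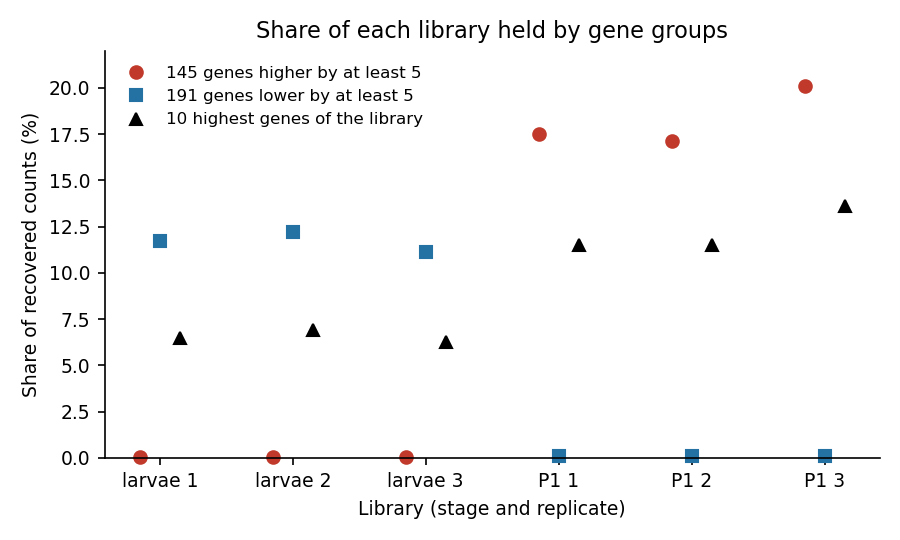
Share of the recovered counts of each of the 6 libraries (y axis, percent) held by the 145 genes that rose by at least 5 log2 units, the 191 that fell by at least 5, and the 10 highest genes of that library, with 1 point per library. The rising genes lie near 0 in larvae and at 17.1% to 20.1% at P1, and the falling genes the other way round.

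The most abundant transcripts were largely exchanged at the very top and less so below it. The 10 genes with the highest mean normalized count in larvae and the 10 at P1 shared 2 members, while the lists of the top 100 shared 56. Of the larval top 10, 6 were called lower and 0 higher, and 5 fell by at least 5 units. Of the P1 top 10, 7 were called higher and 0 lower, and 7 rose by at least 5 units. Of the larval top 100, 42 were called lower and 0 higher. Of the P1 top 100, 30 were called higher and 2 lower. Over all genes tested, 35.6% were called higher and 27.2% lower. Each list was chosen by level in a stage that is itself compared, which in part sets these directions. No function can be assigned here to these genes.

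The gene with the largest rise was LOC6623048. Its normalized counts were 3.25, 9.57 and 8.70 in the 3 larval libraries and 310000, 314000 and 488000 at P1. It was thus nearly silent in every larval library and the most abundant gene of all 3 P1 libraries. The difference was 14.13 ± 0.45 log2 units (SE, n = 3 per stage, limma adjusted p = 9.75e-18), and the ratio of mean normalized counts was 51700, with a 95% counting interval of 32700 to 87200 for the few larval counts. It peaked after P1, at a mean of 649000 at P3 (n = 2), then declined to 46800 at P5 and to 193 in adults, where its libraries spanned 42.4 to 469. The gene was therefore on throughout the early puparium and not only at its start.

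LOC6632216 rose with a shorter course. The larval libraries held 0, 2 and 1 counts of it, and P1 held normalized counts of 150000, 130000 and 86500. The difference was 13.33 ± 0.38 log2 units (SE, n = 3 per stage, limma adjusted p = 1.23e-18). With 3 larval counts in all, the ratio of 96000 has a 95% counting interval of 32800 to 465000. In contrast to LOC6623048, its highest stage mean was at P1. It then fell at each later pupal stage, from 70400 at P2 to 867 at 72 h, and stood at 5410 to 17700 in the adult libraries.

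The gene with the largest fall was LOC6623104. Its normalized counts were 50900, 63100 and 46500 in larvae, and each P1 library held 1 count. The difference was -12.09 ± 0.28 log2 units (SE, n = 3 per stage, limma adjusted p = 4.08e-20), and the larvae were higher by a ratio of 49200, with a 95% counting interval of 16800 to 238000. No count was found in any embryo or adult library, and no pupal library used exceeded a normalized count of 5.68. Among the 10 stages sampled, abundant RNA of this gene was found in larvae alone.

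LOC6623325 fell from 65300, 82400 and 58200 in larvae to 8.53, 5.47 and 4.75 at P1. The difference was -11.77 ± 0.26 log2 units (SE, n = 3 per stage, limma adjusted p = 1.6e-20), a ratio of 11000 with a 95% counting interval of 6950 to 18500. Unlike LOC6623104, it returned later in the puparium. Its normalized counts were 2820 and 4270 in the 2 libraries used of P4 and 357 to 646 at P5, before they fell to 6.93 to 10.4 at 36 h. The later rise stayed far below the larval level.

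**Figure D3:**
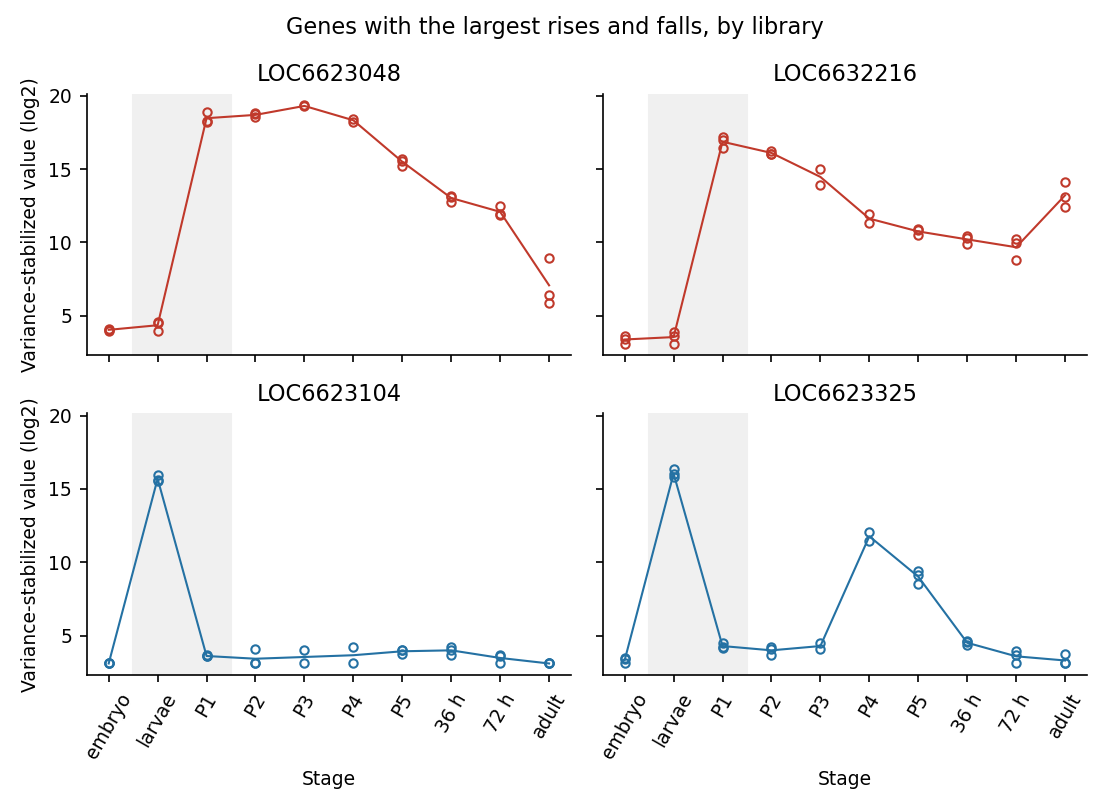
Variance-stabilized value (y axis, log2) of the 2 genes with the largest rise (upper panels) and the 2 with the largest fall (lower panels) in each library used, over the 10 stages (x axis), with lines through stage means and larvae and P1 shaded. LOC6623048 peaks at P3 and LOC6632216 at P1, whereas LOC6623104 is high in larvae alone and LOC6623325 is high in larvae and rises again at P4.

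Some genes were absent from the larval libraries and present at P1. A count of 0 in all 3 larval libraries together with at least 10 counts in each P1 library was found for 548 genes. All of them were called higher, which the choice of the set largely fixes. Their median level at P1 was a normalized count of 56.0, and the highest was 9230. A count of 0 in every larval library allows up to 3 counts over the 3 libraries, a normalized count of 1.17. Against this floor the median gene of the set was at least 48.1-fold higher at P1. With a minimum of 5 counts the set held 755 genes, and with 30 counts it held 210.

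The median level of these 548 genes stayed near or below that of P1 through the early puparium and was higher from 36 h on. The stages P2 to P5 had medians of 33.7, 31.0, 66.4 and 45.8 normalized counts. The median was 168 at 36 h, 336 at 72 h and 903 in adult males. The adult mean was the highest of the 10 stage means for 514 of them (93.8%), compared with 29.3% of all genes tested and 67.6% of the 1066 other genes at 0 in all larval libraries. At least 10 counts were present in every adult library for 522 of them and in every embryo library for 6. The adult and 36 h libraries were not used to choose the set. The adults were males and the 36 h pupae were pools of undetermined sex, so stage and sex cannot be told apart between them. In the contrast of adults with 36 h pupae, 85.6% of the set was called higher in adults (limma, adjusted p under 0.05), against 42.1% of all genes tested and 63.9% of the 1066 other genes. In the contrast of P2 with 36 h pupae, which shares the 36 h libraries with the former, 90.0% was called lower at P2, against 25.0% of all genes and 41.3% of the others. The 1066 other genes had failed the minimum count at P1 and lay lower, with medians of 1.82 at P1, 1.77 at P2 and 4.34 at 36 h. They are thus not matched in level to the set, and the part of level in their lower shares was not tested. The adult library with the lowest total held 2108242 counts, and without it 82.3% of the set was still called higher in adults. With libraries centred on their median these shares were 75.9% for the set and 32.1% for all genes.

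**Figure D4:**
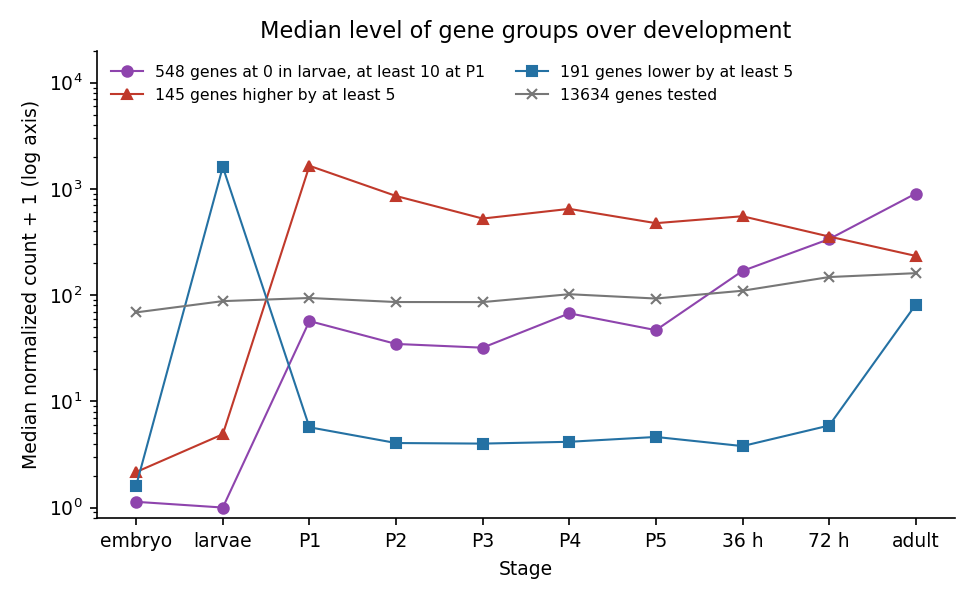
Median normalized count plus 1 (y axis, log scale) at each stage (x axis) for the 548 genes at 0 in larvae and at least 10 counts at P1, the genes that rose or fell by at least 5 log2 units, and all 13634 genes tested. The set of 548 is at 56.0 at P1 and between 31.0 and 66.4 from P2 to P5, then rises to 903 in adults, whereas the 145 strongly rising genes are highest at P1 and the 191 strongly falling genes are high in larvae and intermediate in adults.

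The P1 libraries differed in this set. The median normalized count of the 548 genes was 66.3 in replicate 1, 31.4 in replicate 2 and 69.8 in replicate 3, and replicate 2 was the lowest of the 3 for 505 genes (92.2%). Together the genes held 0.914%, 0.661% and 1.04% of the counts of these libraries. Replicate 2 also had the lowest total, 6597549 counts, and the part of depth in this difference was not tested. The same library correlated less with the mean adult profile (Spearman 0.502) than the other two (0.566 and 0.569), and more with the mean embryo profile (0.717, against 0.674 and 0.682) and the mean larval profile (0.741, against 0.712 and 0.692). Among the 3635 genes higher at P1 by at least 1 unit, replicate 2 lay nearest to the larvae for 57.9%. Among the 2678 lower by at least 1 unit, replicate 1 lay nearest for 50.3% and replicate 2 for 25.7%. Without replicate 2, 8166 genes were called different between P1 and larvae. Spread of this set between libraries was also seen later. At P3 the medians were 13.3 and 48.7 in the libraries used and 130 in the library left out of the fit, and at P4 they were 57.5, 75.5 and 196. The sex ratio of the pools was not verified, and its part in this spread was not tested.

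**Figure D5:**
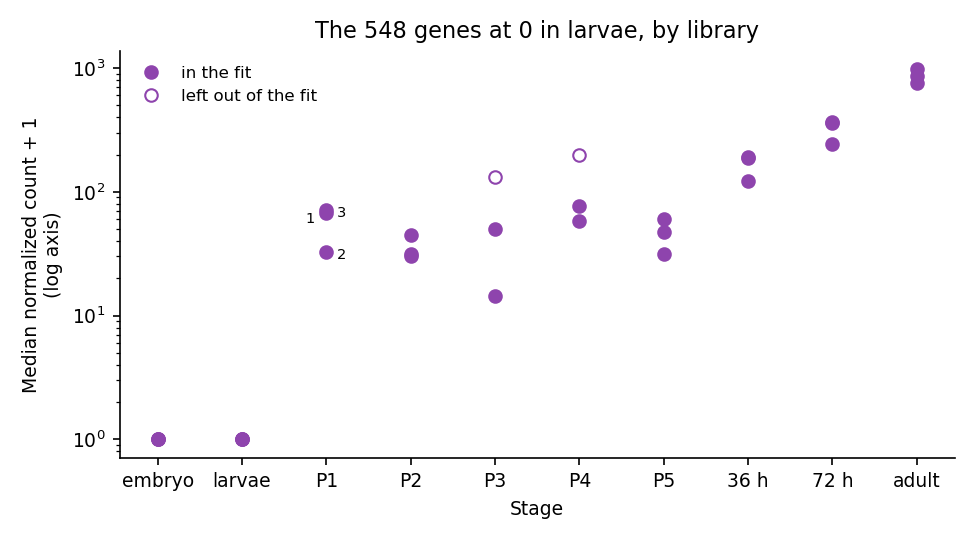
Median normalized count plus 1 (y axis, log scale) of the 548 genes at 0 in larvae, with 1 point per library at each stage (x axis), open where the library was left out of the fit, and P1 replicates numbered. P1 replicate 2 (31.4) lies below replicates 1 and 3 (66.3 and 69.8), and the adult libraries lie at 753 to 976.

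The genes with the largest rises followed another course. Of the 145 genes higher by at least 5 units, 61 (42.1%) had their highest stage mean at P1 and 39 (26.9%) in adults, compared with 6.44% and 29.3% of all genes tested. The P1 share is in part set by the choice of genes high at P1. In the contrast of P2 with 36 h pupae, which uses no larval or P1 library, 57.9% were called higher at P2 and 31.0% lower, against 18.1% and 25.0% of all genes. The P1 libraries were close to the mean P2 profile (Spearman 0.942 to 0.952), so the choice of genes high at P1 in part sets these shares too. The median normalized count of the 145 genes declined from 1650 at P1 to 857 at P2 and 233 in adults. This pattern depended on the scale that chose the genes. Of the 798 genes that rose by at least 5 on the scale of log2(normalized count + 1), which takes in many low genes, 16.7% were higher at P2, and of the 1038 chosen with voom on the recovered counts, 13.7% were.

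Of the 191 genes lower by at least 5 units, 166 (86.9%) had their highest stage mean in larvae and 10 (5.24%) in adults, compared with 16.3% and 29.3% of all genes tested. The larval share is largely set by the choice of genes high in larvae. Their median normalized count was 0.612 in embryos, 1610 in larvae and 4.70 at P1. It stayed between 2.79 and 4.92 from P2 to 72 h and reached 80.4 in adults. In the contrast of adults with 36 h pupae, 61.8% of these genes were called higher in adults and 13.6% lower, against 42.1% and 22.2% of all genes. After quantile normalization the first share was 51.1%, against 28.96% of all genes. At 36 h the median of these genes was 2.79, against 109 for all genes tested, which leaves most of them little room for a lower call. The choice of genes low at P1 therefore in part sets these shares. Thus part of the genes that fell by P1 were higher again in the adult male than at 36 h, with a median level below that of the larva. The sex of the 36 h pupae was not determined, so stage and sex cannot be told apart here either.

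Fewer genes were lost outright than were gained. At least 10 counts in each larval library and 0 in all 3 P1 libraries were found for 61 genes, with a median larval level of 98.3 normalized counts. Against the floor of 3 counts over the P1 libraries, a normalized count of 1.06, the median gene of this set was at least 93.0-fold higher in larvae. With a minimum of 5 counts the set held 73 genes, and with 30 counts it held 40. In 43 of the 61 genes (70.5%) the larval mean was the highest of the 10 stages, compared with 16.3% of all genes tested, a share that the choice of genes present in larvae largely sets. Only 2 had at least 10 counts in every P2 library and 10 in every adult library.

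Placed beside its neighbors, the step from larvae to P1 was a large one. Larvae differed from embryos in 8041 genes (59.0%), of which 4487 (32.9%) were higher and 3554 (26.1%) lower in larvae. This balance turned with the scaling, to 3664 higher and 4600 lower with libraries centred on their median and to 3410 and 4789 after quantile normalization. P2 differed from P1 in 1737 genes (12.7%), of which 690 (5.06%) were higher and 1047 (7.68%) lower at P2. With centring 851 were higher and 808 lower, and with quantile normalization 698 and 808. Each of these contrasts shares larval or P1 libraries with the comparison described here, so their calls are given side by side only. The stages are not evenly spaced in time, and the counts are not rates. Calls also varied with the identifiers. Genes with 7-digit LOC numbers were called in 64.2% of 12277 cases, and those with 9 digits in 44.0% of 707, which had a lower median normalized count (8.43 against 130).

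The same step in *Drosophila melanogaster* is given for its named genes, since its table was transformed separately and its larvae were of other instars. There, 8572 of 14047 genes (61.0%) were called different between P1 (3 libraries) and larvae, with 4516 (32.1%) higher and 4056 (28.9%) lower. The 2 larval libraries were 1 of the 1st and 1 of the 3rd instar. A fit of these 5 libraries alone called 5227 genes. The spread was taken over all stages, so the SEs do not measure the spread between replicates of 1 larval instar. Of 22 matched ecdysone response genes, 16 were higher and 3 lower, with a median difference of 1.95, against 0.03 over all genes. The largest rise among them was in *Eip78C*, a nuclear receptor gene induced by ecdysone, at 5.72 ± 0.33 log2 units (SE, limma adjusted p = 9.52e-13), and the largest fall in *Cyp18a1*, which encodes an enzyme that inactivates ecdysteroids, at -1.29 ± 0.26 (limma adjusted p = 1.68e-04). With 1 library left out at a time, the rise of *Eip78C* ran from 4.66 to 6.78. The fall of *Cyp18a1* was -0.63 without the 1st instar library and -1.95 without the 3rd. All 5 matched *Imp* genes, found as ecdysone-inducible genes of imaginal discs, were higher. They ranged from 0.82 for *ImpL2*, which encodes a secreted binder of insulin-like peptides, to 6.59 for *ImpE2*. The value of *ImpE2* ran from 6.10 to 7.09 with 1 library left out at a time. Without the 3rd instar library the value of *ImpL2* was 0.18 and the call was lost.

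Several of these values differed widely between the 2 larval libraries. Each instar was 1 library, so that instar and library cannot be told apart. *Fbp1*, a receptor for storage proteins in the fat body, had a normalized count of 5.16 in the 1st instar library, 114000 in the 3rd and 558000 to 638000 at P1. The salivary glue gene *Sgs7* had 0 in the 1st instar library, 15200 in the 3rd and 972 to 1630 at P1, and its direction reversed with the larval library used. Of 11 glue genes, 4 were called lower and 0 higher, against 28.9% and 32.1% of all genes. The lower call of *ng3* (-2.88) was lost without the 3rd instar library, where it was -0.27. In the other 3, *Sgs1*, *ng1* and *ng2*, named after their values were seen, the stages overlapped, with normalized counts of 0, 0 and 1.29 in the 1st instar library and 2670, 472 and 248 in the 3rd, so that these calls rest on the 3rd instar library. Of 9 larval serum and fat body genes, 3 were higher and 1 was lower. The largest rise was in *Fbp1*, at 8.34 (2.38 without the 1st instar library and 14.3 without the 3rd). The lower gene was *Apoltp*, a lipid transfer lipoprotein, at -1.52. In *Lsp2*, called higher and named after its values were seen, the stages overlapped. It had 0 in the 1st instar library, 940000 in the 3rd and 229000 to 285000 at P1, so its call rests on the 1st instar library. *Fbp2* and the *Lsp1* genes, not called, likewise lay below the 3rd instar library at P1. The share of higher genes in this list was near that of all genes (32.1%). The *D. virilis* larvae were all of the 2nd instar, so that the *D. virilis* values cannot be set against a 3rd instar level.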

How the data were processed

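RNA of whole animals was measured by paired-end poly(A) RNA-seq. The authors filtered reads with fastp, pseudomapped them with kallisto (DvirRS2 transcriptome for *D. virilis*), summed estimates per gene and deposited, for each species, DESeq2 variance-stabilized log2 values per library. The deposited log2 values follow the logarithm of normalized counts only at high levels.

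The transformation was inverted, and the smallest step was taken as 1 count. In every library 100% of counts below 200 came out whole within 0.02. The recovered totals exceed the read numbers in the text of the paper, and this difference was not settled. Intervals and floors cover counting error only.

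Stages were compared in limma 3.58.1 (R 4.3.3, lmFit, eBayes with trend, two-sided) on the deposited values of 28 *D. virilis* libraries, adjusted by Benjamini-Hochberg over all 13634 varying genes, with calls at adjusted p under 0.05. The study left out a library each at P3 and P4 without numbering them in its text. Replicate 3 was taken as the one, and all 30 libraries were an alternative. *D. melanogaster* was fitted likewise, without the 2nd instar library. No filter on low values was applied. Summaries used Python 3.11.15. The fits were tested on simulated data.

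Genes were named by rule, as the 2 largest rises and 2 largest falls that were called with no overlap, and, in *D. melanogaster*, the largest rise and fall of each of 4 gene lists. No list could be matched in *D. virilis*. The comparison and the lists were chosen with earlier results of these data known. The sets at 0 counts in one stage, and those changed by at least 5 units, were formed after values had been seen. The labels give no batch or date. Alternatives varied libraries, pairing, variance prior, filter, scaling, scale, threshold and replicates. No sequences were used.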

Additional observations from a re-analysis of the deposited data

How the results depend on the processing

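The number of genes called between P1 and larvae in *D. virilis* was 7932 with all 30 libraries, 9513 with the 6 libraries alone, 8496 with libraries centred on their median, 8379 after quantile normalization, 8511 with voom on recovered counts and 7988 to 8166 with each of the 6 libraries left out, and no gene called in both the original fit and an alternative changed direction. The replicate numbers did not pair the libraries (correlations of deviations between same-numbered libraries of -0.142, -0.0745 and 0.038), and a replicate block gave 8615 calls, of which 8530 were shared. Scaling also turned the balance of higher and lower genes between larvae and embryos and, with centring, between P2 and P1, and it moved the contrasts with 36 h pupae. Genes lower in adults numbered 4932 with centring and 5005 with quantile normalization, against 3025, and genes higher at P2 numbered 3711 with centring, against 2465. The cause was not tested. In *D. melanogaster*, a fit of the 5 libraries of larvae and P1 alone gave 5227 calls and 2135 lower, against 8572 and 4056. The cause of this drop was not tested. *Sgs7* was 1.38 with both larval libraries, -3.52 without larvae replicate 1 (the 1st instar) and 6.28 without replicate 3 (the 3rd), and with these 5 libraries the calls of *Cyp18a1*, *ImpL2*, *ng3* and *Fbp1* were lost. Leaving out adult replicate 2 and the other minimum counts were chosen after seeing the data. Depth limits the genes below 1 normalized count.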
